A study of Mus musculus with 7 samples.

Results

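Desmosomes are button-like junctions that tie the keratin filaments of neighbouring epithelial cells together. Their membrane part consists of the desmogleins and desmocollins, which are cadherins that bind across the gap between cells. Inside the cell, armadillo proteins (plakoglobin and the plakophilins) link the cadherin tails to plakins, which in turn hold the keratins. The uterine lumen and glands are lined by simple columnar epithelium, which uses the widely expressed desmosomal cadherins, whereas skin, vagina and other stratified epithelia add further cadherins and the cornified envelope.

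The genes described here are Dsg2, Dsc2, Jup, Pkp1, Pkp2, Pkp3, Dsp, Ppl, Evpl and Perp, a group of 10 chosen by name from the 24964 gene symbols of the deposited table, all of which were listed. Whole uterus was sequenced from mice aged 12 weeks and labelled as diestrus, the quiet stage of the estrous cycle. The 3 control libraries, numbered 1, 2 and 4, had the genotype Pgrcre/+, and the 4 libraries labelled Foxl2LsL, numbered 1 to 4, had Pgrcre/+Foxl2LsL/+. All 7 libraries thus carry 1 Cre allele at the progesterone receptor gene, expressed in epithelium, stroma and muscle of the uterus, and they differ by the Foxl2LsL allele. The labels give no separate animal for each library, so p-values measure the spread between these libraries. Values are FPKM, the fragments counted on a gene divided by its length and by the fragments of the library, which allows levels of different genes to be set side by side.

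The study title concerns overexpression of the forkhead factor FOXL2, but Foxl2 itself was not higher in the libraries so labelled. It stood at 11.1, 19.3 and 12.9 FPKM in controls 1, 2 and 4 and at 12.7, 14.3, 14.8 and 17.2 FPKM in Foxl2LsL libraries 1 to 4 (log2 difference 0.06, SE 0.18, adjusted p 0.818 by limma). Whether the listed gene counts the RNA of the Foxl2LsL allele is not given in the sources used here, so each direction below is for the libraries as labelled. Library denominators were between 47800000 and 67300000 fragments. Markers of uterine epithelium, 10 genes such as Epcam, Cdh1 and Krt8, were present in every library, at summed levels of 847 to 1575 FPKM in controls and 1207 to 1734 FPKM in Foxl2LsL libraries. Of 8 markers of squamous epithelium, 6 stayed below 1 FPKM in every library. Oviduct and ciliated cell markers summed to 299.7 FPKM in control 2 against 7.36 to 25.0 in the others, and adipose markers to 49.2 to 129 FPKM in control 4 and Foxl2LsL 2 and 3 against 0.340 to 8.91 in the rest. Leukocyte markers summed to 22.1 to 32.5 FPKM in controls and 34.5 to 70.5 in Foxl2LsL libraries (2 of 4 tested rose), and endothelial markers to 111 to 145 and 90.7 to 106 FPKM (1 of 6 rose and 4 fell). Summed markers of stroma, smooth muscle and mesothelium, itself a tissue with desmosomes, overlapped between the groups. Of their tested genes, 1 of 8 rose and 3 fell in stroma, 3 of 7 rose in smooth muscle and 1 of 6 fell in mesothelium. The others did not pass. Over all tested genes, 16.7% were called higher and 23.9% lower. Ovary markers summed to at most 2.46 FPKM. The part of any of these in the results was not tested. Without control 2 the same 4 genes described below were called higher, as were 12.4% of all tested genes. They were also called higher without the 3 libraries highest in adipose markers, as were 13.6% of all tested genes. That fit kept controls 1 and 2 and Foxl2LsL 1 and 4, so control 2 with its oviduct markers was still in it. In whole tissue, fewer cells of a type and less RNA per cell cannot be told apart.

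Of the 10 genes, Perp, Evpl, Dsc2 and Dsg2 were higher in the Foxl2LsL libraries, with no overlap between the groups. Jup, Pkp2, Pkp3, Dsp and Ppl did not pass the test, and Pkp1 was too low to be tested. The test was limma on log2(FPKM + 1) over 13334 genes with a mean of at least 1 FPKM, with Benjamini-Hochberg adjustment over all of them and a threshold of 0.05. Thus 4 of 9 tested members rose and 0 fell (0 also at an unadjusted p under 0.05 and by limma-voom), where 40.6% of all tested genes passed, 16.7% as higher and 23.9% as lower. Groups did not overlap, with Foxl2LsL higher, in 4 of 9 members and in 19.7% of all tested genes. The median log2 difference was 0.45 over the 9 tested members, 0.45 over all 10 without the filter, and -0.05 over all tested genes. For a single gene, the two-sided exact permutation test over the 35 ways to split the libraries cannot go below p = 0.0571, a value that Perp, Evpl, Dsc2 and Dsg2 each reached. Without control 1, 7 of the 9 genes were called higher (15% of all tested genes), and with limma array weights 8 were (21.5%); values relative to epithelial markers follow further on.

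**Figure D1:**
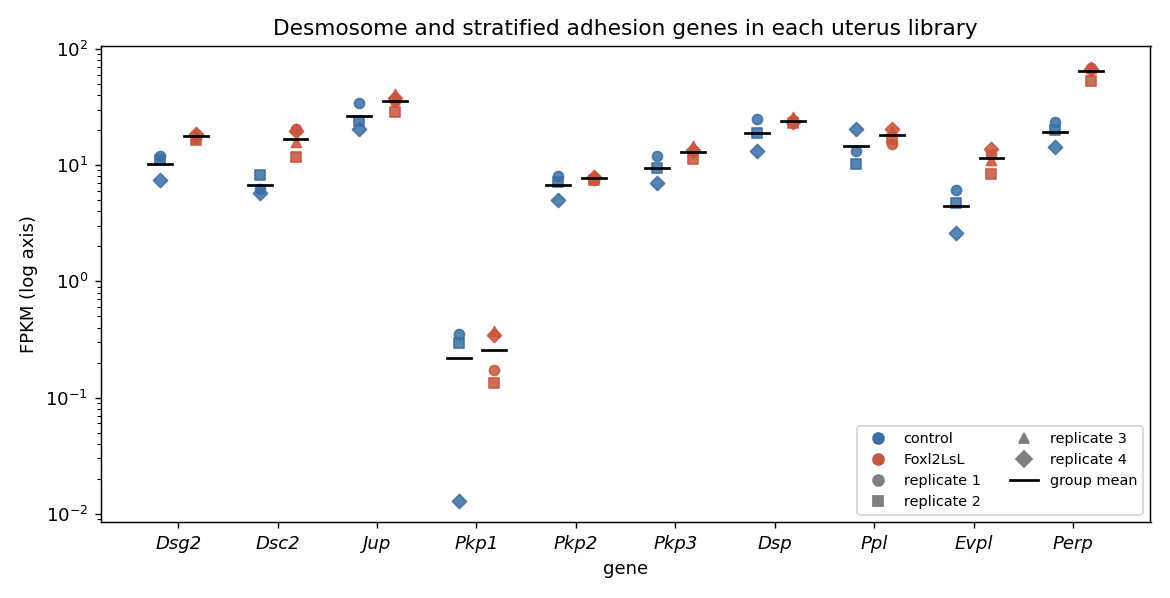
FPKM (log axis) of each gene in the 3 control and 4 Foxl2LsL libraries; symbols give the replicate number and bars the group mean. Perp, Evpl, Dsc2 and Dsg2 do not overlap between the groups, control 4 is the lowest control for 9 of the 10 genes, and Pkp1 stays below 1 FPKM.

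Jup had the highest mean level of the armadillo genes among the 10 in both groups, and Dsp that of the plakins among them. The ratio of Dsp to Jup lay between 0.619 and 0.809 in all libraries. Other genes of the 10, such as Pkp3, also varied with them by library, so this is not particular to the pair. The promoter windows of Jup and Dsp, 250 bases before to 50 after the start site (RefSeq, GRCm38.p6), are shown. These are the 2 of the 10 genes with a window in the set of promoters used. Capitals mark GC boxes, GGGCGG on either strand. The windows lie at chr11:100397741-100398040 on the minus strand for Jup and chr13:38151044-38151343 on the plus strand for Dsp.
Jup: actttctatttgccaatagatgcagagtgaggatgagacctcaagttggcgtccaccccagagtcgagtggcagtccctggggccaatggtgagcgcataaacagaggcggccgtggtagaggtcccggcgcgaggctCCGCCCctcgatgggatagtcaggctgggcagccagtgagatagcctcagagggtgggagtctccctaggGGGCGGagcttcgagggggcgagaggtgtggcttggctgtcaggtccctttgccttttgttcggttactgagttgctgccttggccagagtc
Dsp: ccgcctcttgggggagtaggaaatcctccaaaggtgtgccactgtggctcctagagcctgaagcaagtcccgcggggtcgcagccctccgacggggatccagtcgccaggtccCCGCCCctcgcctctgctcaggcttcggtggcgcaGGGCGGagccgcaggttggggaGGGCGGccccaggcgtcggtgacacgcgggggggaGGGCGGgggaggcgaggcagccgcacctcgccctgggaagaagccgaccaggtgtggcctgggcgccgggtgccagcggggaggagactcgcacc
The GC box, bound by SP and KLF family factors, matched in both windows, as it did in 35.7% of 32851 promoter windows of the same length. In Jup the matches began 112 bases (minus strand) and 42 bases (plus strand) before the start site. Dsp held matches 137 bases (minus strand) and 102, 80 and 45 bases (plus strand) before it. The forkhead core GTAAACA, the grainyhead motif AACCGGTT and the nuclear receptor half-site AGGTCA, each searched on both strands, had no match in either window. Over all windows, 3.65%, 0.146% and 16.3% held them. Only these exact letters were searched, and other forms of the motifs, such as variants of the forkhead core, were not. These counts describe letters only and say nothing of binding.

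Both desmosomal cadherins of simple epithelia rose. Dsg2 encodes desmoglein 2, and Dsc2 desmocollin 2, its partner across the junction; both genes lie on chromosome 18. Dsg2 was at 12.0, 11.1 and 7.39 FPKM in controls 1, 2 and 4 and at 17.1, 16.6, 18.9 and 18.5 FPKM in Foxl2LsL libraries 1 to 4. The Foxl2LsL values lay close together and all above the highest control. Dsg2 averaged 10.1 ± 2.43 against 17.7 ± 1.09 FPKM (SD, n = 3 and n = 4), a ratio of 1.75, with a log2 difference of 0.77 (SE 0.15; limma adjusted p 0.00542).

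Dsc2 rose as well. It was at 6.23, 8.19 and 5.77 FPKM in the controls and at 20.3, 11.7, 15.8 and 19.7 FPKM in the Foxl2LsL libraries. Library 2 was the lowest of its group and still stood above every control. Means of 6.73 ± 1.29 (SD, n = 3) and 16.9 ± 4.02 FPKM (SD, n = 4) gave a ratio of 2.51 and a log2 difference of 1.19 (SE 0.20; limma adjusted p 0.00302). The ratio of Dsc2 to Dsg2 within a library was 0.520, 0.740 and 0.780 in controls and 1.19, 0.703, 0.838 and 1.07 in Foxl2LsL libraries. These ranges overlapped, so the pair did not differ in their rise beyond the spread (two-sided exact permutation p 0.171; 0.206 after Benjamini-Hochberg adjustment over 6 ratios). At least 1765 fragments lay on either gene in each library.

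The other desmosomal cadherins, which mark stratified epithelia, were low. Dsg1a and Dsg1b were listed at 0 in every library. Dsc1, Dsc3, Dsg1c, Dsg3 and Dsg4 stayed below 1 FPKM in all 7. Dsg3, the desmoglein of basal stratified cells, averaged 0.0653 ± 0.0456 FPKM (SD, n = 3) and 0.122 ± 0.0538 FPKM (SD, n = 4), and its groups overlapped. Dsc3, a desmocollin of basal stratified cells, averaged 0.0127 ± 0.00404 and 0.0535 ± 0.0209 FPKM (SD, n = 3 and n = 4). Dsg1c averaged 0.0580 ± 0.0305 and 0.0258 ± 0.00479 FPKM, and Dsc1 was listed at 0 in the controls and averaged 0.0125 ± 0.00772 FPKM (SD, n = 4) in the Foxl2LsL libraries. Groups of these 3 did not overlap, with Dsc3 and Dsc1 higher and Dsg1c lower in Foxl2LsL libraries. Fragments were few. Dsc3 had 3 to 6 in controls and 7 to 23 in Foxl2LsL libraries, Dsc1 0 and 1 to 6, and Dsg1c 8 to 25 and 4 to 8. Over all tested genes, groups did not overlap with Foxl2LsL higher in 19.7%, but these 3 were too low to be among them. The share of all tested genes without overlap and with Foxl2LsL lower was not counted, so Dsg1c has none beside it. None passed without the filter (limma adjusted p 0.0508 for Dsc3, 0.144 for Dsg1c and 0.238 for Dsc1).

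None of the tested armadillo genes among the 10 passed. Jup encodes plakoglobin, a relative of beta-catenin that binds the cadherin tails (chromosome 11, 100368958 to 100397763, minus strand, GRCm38 in GENCODE M21). It was at 34.5, 24.2 and 20.4 FPKM in controls and at 35.9, 28.4, 40.6 and 37.9 FPKM in Foxl2LsL libraries. Control 1 lay above Foxl2LsL 2, so the groups overlapped (log2 difference 0.44, SE 0.19; limma adjusted p 0.0906).

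Pkp3 and Pkp2 encode plakophilins, which cluster the cadherins and desmoplakin laterally. Pkp3 (chromosome 7, 141078218 to 141090510, plus strand) was at 12.1, 9.39 and 6.96 FPKM in controls and 13.02, 11.4, 14.5 and 13.5 FPKM in Foxl2LsL libraries. Its log2 difference was 0.45 (SE 0.16; limma adjusted p 0.0583), with control 1 above Foxl2LsL 2. Pkp2 (chromosome 16, 16213318 to 16272712, plus strand) was at 8.13, 7.13 and 5.02 FPKM in controls. The Foxl2LsL libraries held 7.46, 7.41, 8.04 and 7.96 FPKM of Pkp2, all below control 1. That gave a log2 difference of 0.19 (SE 0.14; limma adjusted p 0.304), the smallest of the 9 tested genes. The ratio of Pkp2 to Pkp3 was 0.719 ± 0.0422 (SD, n = 3) and 0.592 ± 0.0421 (SD, n = 4), and did not overlap between the groups (two-sided exact permutation p 0.0571; 0.0857 adjusted over 6 ratios).

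Pkp1, the plakophilin of stratified epithelia (chromosome 1, 135871395 to 135919207, minus strand), was barely present. It stood at 0.351, 0.293 and 0.0130 FPKM in controls and at 0.173, 0.134, 0.372 and 0.346 FPKM in Foxl2LsL libraries. Control 4 held 4 fragments of it and the others between 30 and 105. With no filter its log2 difference was 0.05 (SE 0.12; limma adjusted p 0.79). Pkp4, a more distant armadillo relative fixed in the list of other desmosome genes and the 1 gene of its 8 that was tested, rose from 16.7 ± 1.82 to 28.2 ± 1.51 FPKM (SD, n = 3 and n = 4). Its log2 difference was 0.73 (SE 0.09; limma adjusted p 0.00101).

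Of the plakins, Evpl passed and Dsp and Ppl did not. Dsp encodes desmoplakin, the link from the plaque to keratin (chromosome 13, 38151294 to 38198577, plus strand). It was at 25.1, 18.8 and 13.2 FPKM in controls and at 24.4, 23.0, 25.9 and 23.5 FPKM in Foxl2LsL libraries. Control 1 sat among the Foxl2LsL libraries while control 4 sat far below them (log2 difference 0.37, SE 0.18; limma adjusted p 0.140). The ratio of Dsp to Jup ranged from 0.619 to 0.809 over the 7 libraries. Its means were 0.718 ± 0.0663 (SD, n = 3) and 0.686 ± 0.0856 (SD, n = 4) (two-sided exact permutation p 0.571).

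Evpl encodes envoplakin, a partner of periplakin that joins desmosomes to the cornified envelope in stratified epithelia (chromosome 11, 116220559 to 116238077, minus strand). It rose from 6.11, 4.70 and 2.59 FPKM in controls to 12.6, 8.42, 11.1 and 13.7 FPKM in Foxl2LsL libraries. Every Foxl2LsL library exceeded every control. Means of 4.47 ± 1.77 FPKM (SD, n = 3) and 11.5 ± 2.28 FPKM (SD, n = 4) gave a ratio of 2.56 and a log2 difference of 1.22 (SE 0.24; limma adjusted p 0.00644).

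Ppl encodes periplakin (chromosome 16, 5086291 to 5132421, minus strand) and did not pass. It was at 13.2, 10.3 and 20.3 FPKM in controls and at 15.1, 16.9, 19.6 and 20.6 FPKM in Foxl2LsL libraries. Control 4, the lowest control for the other 9 genes, was the highest control for Ppl. Its log2 difference was 0.33 (SE 0.21; limma adjusted p 0.244), and without control 4 it was 0.58 with an adjusted p of 0.0187 (limma; 16% of all tested genes were called higher there). The ratio of Evpl to Ppl was 0.464, 0.455 and 0.127 in controls and 0.835, 0.499, 0.566 and 0.664 in Foxl2LsL libraries, with no overlap (two-sided exact permutation p 0.0571; 0.0857 adjusted over 6 ratios).

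Perp encodes a tetraspan membrane protein of desmosomes, known as a target of p53 and p63 (chromosome 10, 18845020 to 18857073, plus strand), and differed most of the 10. It was at 23.5, 19.9 and 14.2 FPKM in controls and at 68.0, 53.4, 69.1 and 67.0 FPKM in Foxl2LsL libraries. The lowest Foxl2LsL value was well over the highest control value. Perp averaged 19.2 ± 4.70 against 64.4 ± 7.34 FPKM (SD, n = 3 and n = 4), a ratio of 3.35. The log2 difference was 1.71 (SE 0.17; limma adjusted p 0.000492), and 1.005% of all tested genes had a larger one. The ratio of Perp to Dsp was 0.937, 1.06 and 1.07 in controls and 2.79, 2.32, 2.66 and 2.85 in Foxl2LsL libraries (two-sided exact permutation p 0.0571; 0.0857 adjusted over 6 ratios). Trp63, the gene of p63, was at 0.286 ± 0.117 and 0.257 ± 0.110 FPKM (SD, n = 3 and n = 4), with overlapping groups.

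These differences altered the order of the genes. In controls the means ran Jup, Perp, Dsp, Ppl, Dsg2, Pkp3, Pkp2, Dsc2, Evpl and Pkp1 from high to low. The ranges of neighbours in that order overlapped throughout, except between Evpl and Pkp1. In Foxl2LsL libraries the order was Perp, Jup, Dsp, Ppl, Dsg2, Dsc2, Pkp3, Evpl, Pkp2 and Pkp1. There Perp, Jup and Dsp were each separate from the next gene in all 4 libraries, as were Evpl from Pkp2 and Pkp2 from Pkp1. Ppl, Dsg2, Dsc2 and Pkp3 overlapped with their neighbours, and so did Pkp3 with Evpl.

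Within each group the genes varied together by library. Control 1 was the highest control for 8 of the 10 genes and control 4 the lowest for 9, and 8 genes followed the order control 1, control 2, control 4. Among Foxl2LsL libraries, library 2 was the lowest for 9 genes, with Ppl the exception, and library 3 the highest for 7. The level of epithelial markers had the same order in controls and was also lowest in library 2 among Foxl2LsL libraries. The mean log2(FPKM + 1) of the 10 uterine epithelium markers was 7.10, 6.48 and 6.04 in controls 1, 2 and 4 and 7.19, 6.63, 7.12 and 7.15 in Foxl2LsL libraries. Its groups overlapped (difference 0.49; two-sided exact permutation p 0.114). Of the 10 markers, Krt7 and Krt18 rose past the threshold and 8 did not pass.

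**Figure D2:**
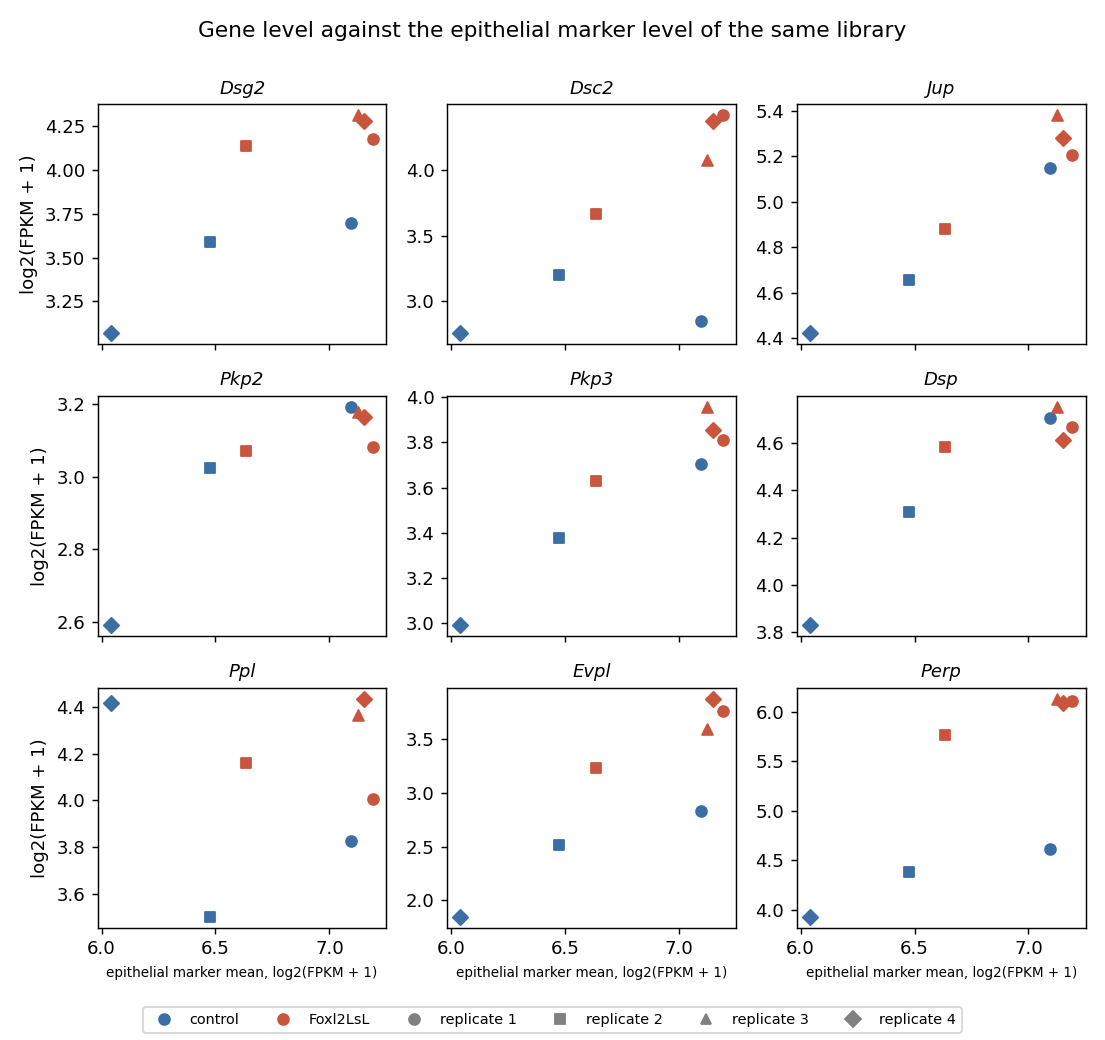
Level of each tested gene, as log2(FPKM + 1), against the mean level of the 10 epithelial markers in the same library, also as log2(FPKM + 1); colours give the group and symbols the replicate number. Jup, Pkp2, Pkp3 and Dsp of control 1 lie near the Foxl2LsL libraries of like marker level. Perp (23.5 FPKM), Dsc2 (6.23), Evpl (6.11), Dsg2 (12.0) and Ppl (13.2) of control 1 lie below theirs.

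Each gene was therefore also expressed relative to these markers, by subtracting the marker mean of the library from all genes on the log2 scale. This scaling moved the median log2 difference of all tested genes by -0.49, and 21.3% of them then passed, 1.90% as higher. Perp still rose, by 1.23 (SE 0.32; limma adjusted p 0.00192). Evpl at 0.74 (SE 0.35, limma adjusted p 0.105) and Dsc2 at 0.71 (SE 0.34, limma adjusted p 0.110) no longer passed, although their groups still did not overlap. Scaled SDs in controls and Foxl2LsL libraries were 0.157 and 0.105 for Evpl and 0.555 and 0.139 for Dsc2. The limma SE is drawn toward the spread of all tested genes, which this scaling moves together. For Evpl it therefore does not measure the spread of that gene alone. Dsg2 fell to a difference of 0.29 (limma adjusted p 0.497) with overlapping groups. Jup (-0.0433), Pkp3 (-0.0336), Dsp (-0.12), Ppl (-0.16) and Pkp2 (-0.30) changed sign, and none of them passed (limma adjusted p 0.495 to 0.941). Pkp4, at 0.24, did not pass either (limma adjusted p 0.558). Relative to the median gene, each difference is the same as before the scaling.

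**Figure D3:**
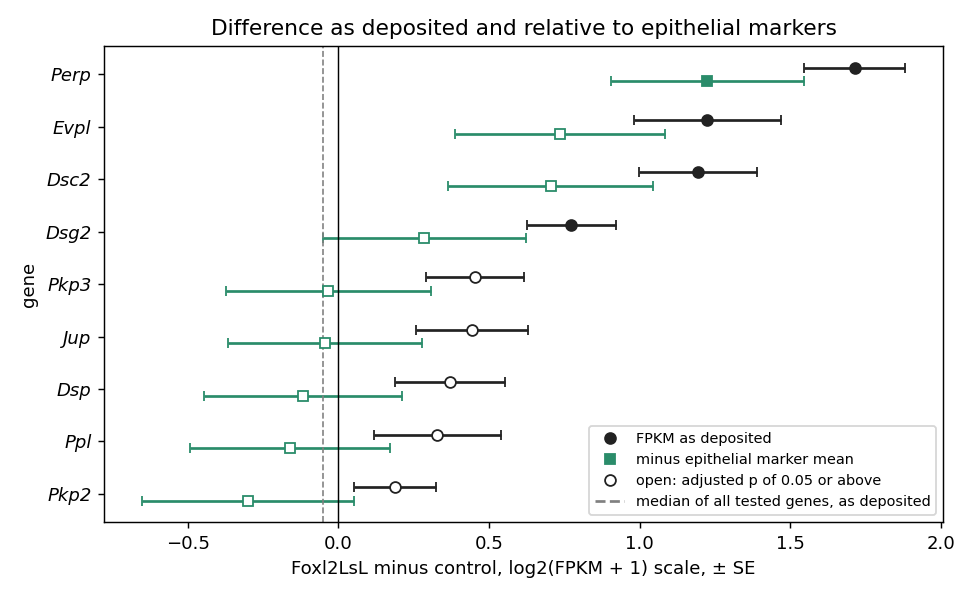
Difference of Foxl2LsL minus control on the log2(FPKM + 1) scale with its standard error, for FPKM as deposited (circles) and after subtracting the epithelial marker mean (squares); filled symbols passed an adjusted p of 0.05 and the dashed line is the median of all tested genes as deposited. Of the 4 genes past the threshold as deposited, Perp alone remained past it by limma relative to the markers. Groups of Evpl and Dsc2 still did not overlap there.

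Neighbouring junction systems were described from lists of genes. The counts here and in the lists that follow stand beside 16.7% of all tested genes called higher and 23.9% called lower. Adherens junctions, which couple cells through classical cadherins and actin, are the nearest relatives. Of 12 tested genes, 1 rose, 2 fell and 9 did not pass, with a median log2 difference of -0.04. Nectin4 rose from 6.55 ± 2.998 to 19.99 ± 4.90 FPKM (SD, n = 3 and n = 4), while Nectin3 (log2 difference -1.04) and Nectin1 (-0.52) fell. Relative to the epithelial markers Nectin4 (1.03) still passed as higher, and Nectin3 (-1.53) and Nectin1 (-1.01) as lower. Cdh1, the E-cadherin gene, was at 92.7 ± 25.6 and 86.3 ± 12.8 FPKM, with overlapping groups (limma adjusted p 0.769). The ratio of Jup to Ctnnb1, the gene of its relative beta-catenin, was 0.117, 0.0916 and 0.0913 in controls and 0.155, 0.129, 0.174 and 0.159 in Foxl2LsL libraries (two-sided exact permutation p 0.0571; 0.0857 adjusted over 6 ratios).

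Hemidesmosomes anchor keratin to the basement membrane. Of 5 tested genes of that list, 3 rose, 0 fell (0 also at an unadjusted p under 0.05 and by limma-voom) and 2 did not pass (median log2 difference 0.47). Itgb4, the beta-4 integrin, rose from 9.47 ± 1.37 to 24.3 ± 5.97 FPKM (SD, n = 3 and n = 4), a log2 difference of 1.25. Itga6, an integrin of the same list, went the other way, at 25.7 ± 1.60 and 20.3 ± 4.25 FPKM. Its groups did not overlap, but it did not pass (log2 difference -0.35, limma adjusted p 0.110). Cd151 did not pass either (0.27, limma adjusted p 0.0727). The plakins Dst (0.74) and Plec (0.47) rose, and their ranges stood apart between the groups. They are also the 2 genes that rose among the 3 tested of the remaining plakins, where Macf1 did not pass. Relative to the epithelial markers none of Itgb4, Dst and Plec passed, and Plec was at -0.0224.

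Keratins are the filaments that desmosomes hold. Of 4 tested simple keratins, Krt7 (0.95) and Krt18 (0.80) rose and 2 did not pass. The call of Krt7 was lost in 5 of the 7 leave-one-out fits. Of 11 stratified keratins 4 were tested, and Krt13 (0.68; limma adjusted p 0.0447) rose; its call was lost in 12 of 18 alternatives, among them 6 of the 7 leave-one-out fits. Krt5 and Krt1 were under the filter and are named after their values were seen. Krt5, the basal keratin of stratified epithelia, was at 0.0580, 0.0340 and 0.0420 FPKM in controls and 2.22, 0.669, 0.483 and 2.16 FPKM in Foxl2LsL libraries. Krt1 went from 0.129 ± 0.0719 to 1.33 ± 0.203 FPKM (SD, n = 3 and n = 4). Without the filter both passed as higher (limma adjusted p 0.0356 and 0.000827), and Krt4 passed as lower. Krt14, the usual partner of Krt5, was at 0.240 ± 0.201 and 0.136 ± 0.0861 FPKM, with overlapping groups.

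Cornified envelope genes were mostly low. Of 13 listed, 11 stayed below 1 FPKM in every library, and of the 2 tested 0 passed (limma; 1 had an unadjusted p under 0.05, and 0 passed by limma-voom). Sprr1a stood at 3.28 ± 2.35 and 14.5 ± 11.2 FPKM (SD, n = 3 and n = 4), with overlapping groups (limma adjusted p 0.124). The other tested gene, Lor, went the other way, at 1.38 ± 0.387 and 0.846 ± 0.172 FPKM, also overlapping. Its log2 difference was -0.36 (limma unadjusted p 0.0399, adjusted p 0.0834). Tgm1, under the filter, was lower without overlap and did not pass without the filter. There Krtdap passed as higher and Cdsn as lower (limma adjusted p 0.0189 and 0.031).

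Regulators of epithelial identity were taken from a list of 12. Of 11 tested, 6 rose, 0 fell (0 also at an unadjusted p under 0.05 and by limma-voom) and 5 did not pass (median log2 difference 0.56). Klf4, a factor of differentiating epithelia, rose from 12.9 ± 0.965 to 67.8 ± 20.3 FPKM (SD, n = 3 and n = 4; log2 difference 2.26). Elf3 (1.95) and Ovol2 (1.53) were the next in size, and the call of Elf3 was lost in 4 of the 7 leave-one-out fits. Klf4 (1.77), Elf3 (1.46) and Ovol2 (1.04) still passed as higher relative to the epithelial markers, as did 1.90% of all tested genes. Their limma adjusted p values there were 1.57e-06, 9.97e-05 and 0.0227. Grhl2, a grainyhead factor of epithelial junction genes, rose from 10.4 ± 1.17 to 15.8 ± 1.03 FPKM (limma adjusted p 0.00291), and relative to the epithelial markers it was at 0.0701 (adjusted p 0.875); it is named after its values were seen. Of 6 tested mesenchymal regulators, Snai1 (-2.34) and Twist2 (-1.89) fell, Twist1 (0.47) rose and 3 did not pass. Snai1, a repressor of E-cadherin, went from 17.9 ± 5.74 to 2.66 ± 0.649 FPKM. Relative to the epithelial markers Twist1 was at -0.0215, while Snai1 (-2.83) and Twist2 (-2.38) still passed as lower.

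**Figure D4:**
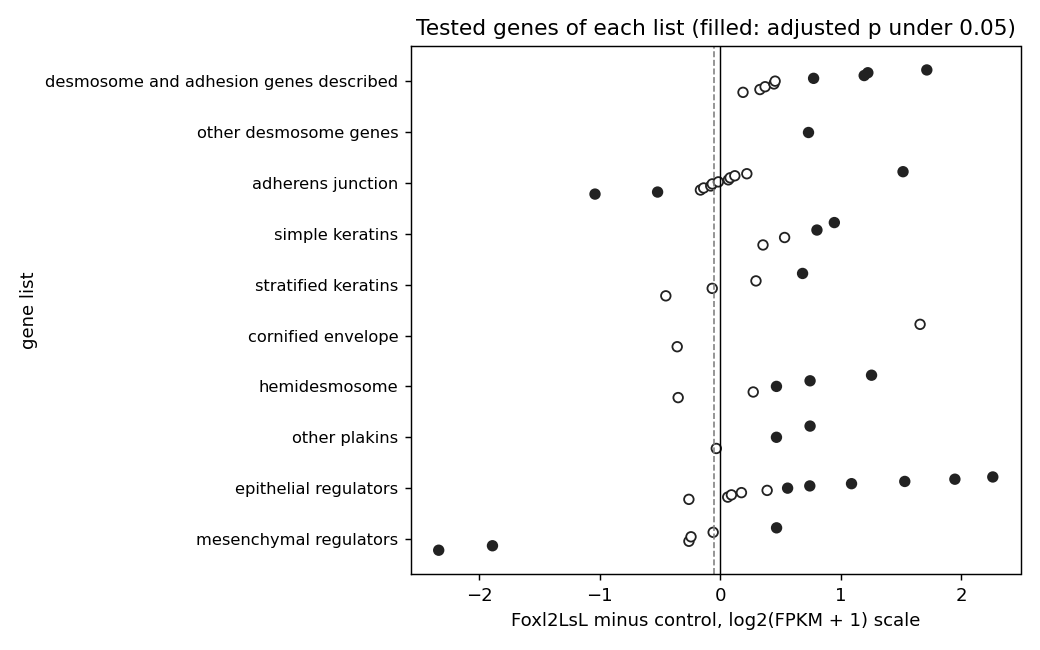
Log2 difference of Foxl2LsL minus control for each tested gene of the 10 described and of the 9 lists; filled points had an adjusted p under 0.05 and the dashed line is the median of all tested genes. The tested desmosome and adhesion genes lie between 0.19 and 1.71, and the adherens junction genes lie on both sides of 0.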

How the data were processed

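RNA sequencing libraries of whole uterus were compared between 3 Pgrcre/+ and 4 Pgrcre/+Foxl2LsL/+ samples. The authors deposited 1 table of FPKM values with 1 column per library. The same deposited table gives another value, the length of each gene in bases, per the file headers. STAR 2.5.2b, featureCounts 1.5.0-p1 and DESeq2 1.12.4 and the build mm10 are named in the submitters' processing notes; the annotation and use of strand are not given in the sources used here. FPKM times length fell within 0.1 of whole multiples of 1 step in 100% of 1647 to 1819 low values per library, where 20% would by chance. These steps gave the library denominators and the fragments per gene. Counts cover counting error only.

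Genes with a mean of at least 1 FPKM, and Foxl2, were tested with limma 3.58.1 (R 4.3.3; intensity trend) on log2(FPKM + 1), which understates changes of low genes. Benjamini-Hochberg adjustment covered all 13334 tested genes. Single values and 6 ratios had exact permutation tests. In a simulation of this comparison over 13334 genes, the fit recovered 94.5% of 200 genes changed by 1.5 on the log2 scale and 10 unchanged genes were called. Its noise was drawn independently for each gene. The changed genes left out those of the lowest levels. They were also far fewer than the 40.6% of tested genes that passed in the data. The rates of recovery and of false calls therefore need not hold for the real comparison. Of the 10 genes described, Perp alone differed by 1.5 or more, so the rate does not cover the smaller differences of the others. The replicate numbers 1, 2 and 4 are shared, but the labels do not say that they pair samples, so no block was used. The genes, the lists and the tests were chosen with earlier results of these data known; named genes were the 10 described, Foxl2 and up to 3 genes past the threshold with the largest change per list. Gene positions are from GENCODE M21 on GRCm38, matched by symbol, and promoter windows were found for 2 of the 10. Reads shared among keratins or plakophilins cannot be judged from the table. Python 3.11.15, pandas 2.3.3 and matplotlib 3.10.9 were used.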

Additional observations from a re-analysis of the deposited data

Results flagged for a closer look

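Perp in Foxl2LsL library 2, at 53.4 FPKM, stood apart from the other Foxl2LsL libraries, which lay between 67.0 and 69.1 FPKM: its gap to the nearest was 0.864 of the range of the group, above the critical value of Dixon for 4 samples. Of 27 genes looked at in this way it was the 1 that stood apart, and chance marks about 1 in 20. Library 2 had the lowest epithelial marker level of its group (6.63 against 7.12 to 7.19), and the part of that in its Perp level was not tested.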

How the results depend on the processing

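Results were recomputed under 19 alternatives, 18 of them planned and 1, without the 3 libraries highest in adipose markers, chosen after seeing the data. Perp was past the threshold under all 19 (adjusted p up to 0.0145, limma), and Evpl, Dsc2 and Dsg2 under 18, all but epithelial marker scaling. Pkp1, under the filter on mean FPKM, had 4 to 105 fragments per library, while the other 9 members had at least 953 fragments in each library. The count of members past the threshold was 4, and 1 with epithelial marker scaling, 8 with array weights and 4 to 7 over the 7 leave-one-out fits. The highest of these was without control 1, where Jup (0.65), Pkp3 (0.63) and Dsp (0.58) also passed. Array weights added Jup (0.54), Pkp3 (0.46), Dsp (0.32) and Ppl (0.69). Pkp3 also passed with quantile normalization (0.51) and median centring (0.51), and Ppl without control 4 (0.58). Over the 7 leave-one-out fits, Jup ranged from 0.28 to 0.65, Pkp3 from 0.27 to 0.63, Dsp from 0.15 to 0.58 and Ppl from 0.12 to 0.58. With epithelial marker scaling the log2 differences were 0.29 for Dsg2, 0.71 for Dsc2, 0.74 for Evpl, -0.0433 for Jup, -0.30 for Pkp2, -0.0336 for Pkp3, -0.12 for Dsp, -0.16 for Ppl, -0.0224 for Plec, -0.0215 for Twist1 and -0.43 for Foxl2. That scaling subtracts a constant from all genes of a library. Foxl2 also changed sign with array weights (-0.15), without control 1 (-0.10) and without Foxl2LsL 4 (-0.01), and never passed. The cause of the other changes was not tested.

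All genes past the threshold numbered 5409, and 2843 with epithelial marker scaling, 3243 with a replicate block and 3853 to 5328 over the 7 leave-one-out fits. With the replicate block on libraries 1, 2 and 4 the same 4 members passed. Deviations of same-numbered libraries correlated at 0.228, -0.0306 and -0.112, so the numbers were not taken to pair the samples. The share of higher genes among calls can be read from 16.7% higher and 23.9% lower as deposited against 20.1% and 19.8% after median centring.

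Counts past the threshold in the lists moved with the settings. With epithelial marker scaling they were 0 for other desmosome genes, simple keratins, stratified keratins and other plakins, 1 for cornified envelope and hemidesmosome, and 3 for epithelial regulators. Without the filter they were 1 for simple keratins, 3 for stratified keratins and 2 for cornified envelope. Array weights gave 5 for adherens junction and 1 for cornified envelope. The replicate block gave 1 for simple and 0 for stratified keratins and lost the call of Nectin1 (-0.46; limma adjusted p 0.0556). Stratified keratins had 0 with pseudocount 0.1, with a mean of at least 5 FPKM, with limma-voom on recovered fragments and without the adipose-rich libraries, where cornified envelope and other plakins had 1. Leaving out a library gave 1 to 3 simple keratins, 0 to 1 stratified keratins, 0 to 1 cornified envelope genes and 3 to 5 mesenchymal regulators.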
